A study of Mus musculus with 6 samples.

Results

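The 9 genes examined here were the myosin heavy chain genes Myh6, Myh7 and Myh7b, the sarcomeric actin genes Acta1 and Actc1, the slow troponin I gene Tnni1, and the load-responsive genes Ankrd1, Rcan1 and Fhl1. They were chosen by name for the fetal gene program and the hypertrophic response of heart muscle. All 9 were found among the 54532 genes of the deposited table by matching Ensembl identifiers to GENCODE M21, and 8 of them passed the filter on low values, which asked for 0.5 FPKM or more in 3 libraries or more. FPKM, the number of fragments per kilobase of exon after a correction for depth, allows levels to be set side by side between genes. Male C57BL/6 mice, 6 to 8 weeks old at the start, were kept for 12 weeks on 1 of 2 regimens. The 3 HFpEF mice, a model of heart failure with preserved ejection fraction, ate a high-fat diet with 60% of kcal from fat and drank water containing L-NAME, a nitric oxide synthase inhibitor, at 0.5 g/L. The 3 Chow mice received standard chow and regular water. The labels describe each sample as heart, the study's methods as left ventricular myocardium, and each of the 6 libraries came from a different mouse. Values below are listed in the order of replicates 1, 2 and 3 of a group.

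The rodent ventricle switches at birth from the slow β-myosin heavy chain of Myh7 to the fast α-myosin heavy chain of Myh6. Under sustained load many failing hearts move part of the way back, and Acta1, the skeletal α-actin gene that is active in the developing heart, is then often induced beside Actc1, the cardiac α-actin gene. Calcineurin, which activates NFAT transcription factors, and mechanical strain sensed at the sarcomere are classical inputs to this program, and Rcan1, Ankrd1 and Fhl1 are widely read as their reporters.

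Read totals were alike in both groups, but the denominators behind FPKM were not, and 1 library stood apart. Reads recovered from the FPKM steps totalled 13076772 to 15574914 per Chow library and 13461735 to 16027084 per HFpEF library. The denominators implied by those steps, 11734336 to 14239712 reads in Chow and 13847565 to 19316914 in HFpEF, were 0.897 to 0.914 times the recovered total in Chow and 1.03, 1.06 and 1.27 times it in HFpEF. The FPKM values below are as deposited, and with recovered totals as denominators the median log2 fold change of all genes tested was 0.28 in place of -0.012. HFpEF replicate 3 lay at 75.5 on the first principal component, which held 42.3% of the variance, against 11.5 and 12.7 for the other HFpEF libraries. Mitochondrially encoded genes took 7.17% of its reads, against at least 20.1% in each of the other 5. The 10 ventricular cardiomyocyte markers, led by Myl2, Myl3 and Tnni3, were abundant throughout, with a summed FPKM of 9035 to 9651 in Chow and of 5961, 6112 and 4113 in HFpEF. As deposited, all 10 were lower in every HFpEF library than in any Chow library, although their median log2 fold change of -0.64 shrank to -0.35 with recovered totals as denominators and to -0.21 with quantile normalization. In bulk tissue fewer cells of a type and less RNA per cell cannot be told apart. The 8 atrial markers summed to 29.6, 34.0 and 599 FPKM in Chow and to 2787, 4235 and 73.6 in HFpEF, so 3 of the 6 libraries held a clear atrial signal.

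**Figure D1:**
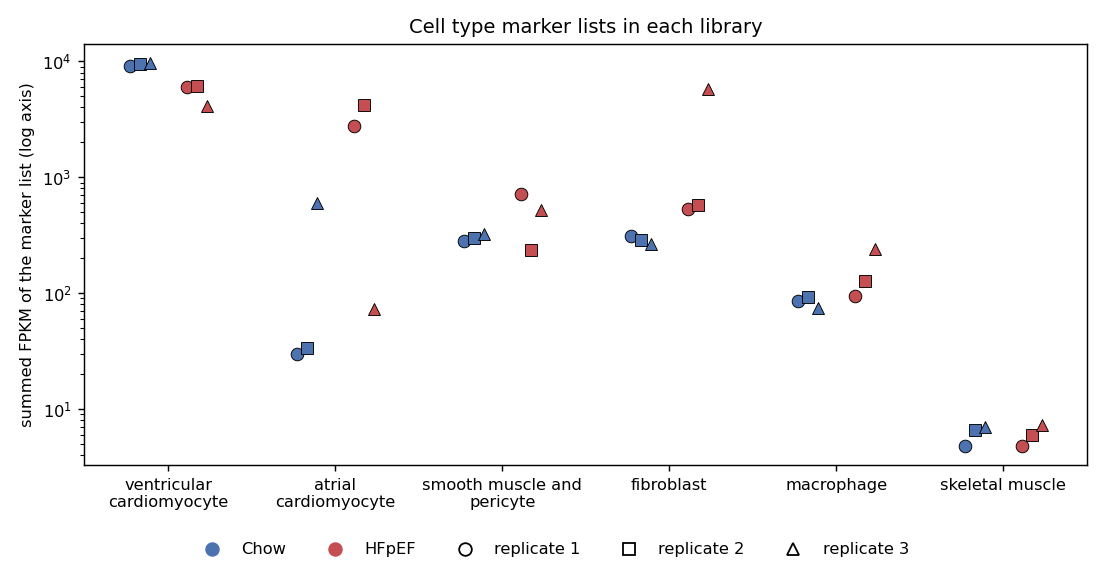
Summed FPKM (log axis) of 6 cell type marker lists, 1 point per library, Chow in blue and HFpEF in red. Ventricular cardiomyocyte sums run from 4113 to 9651, while atrial sums run from 29.6 to 4235 and fibroblast sums from 264 to 5730.

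The α- and β-myosin genes lie in tandem on the minus strand of chromosome 14, and their coding sequences are so alike that short reads cannot always be assigned. The first 60 coding bases of each are shown (GENCODE M21 transcripts, GRCm38, 5′ to 3′) because the capitals, which mark the 14 positions where they differ, show how little separates the pair. Myh6 begins at chr14:54965401-54965460 in exon 3 and Myh7 at chr14:54992814-54992873 in exon 4.
Myh6: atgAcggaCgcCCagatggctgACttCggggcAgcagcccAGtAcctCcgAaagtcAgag
Myh7: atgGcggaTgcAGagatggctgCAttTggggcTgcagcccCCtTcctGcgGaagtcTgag
Over the whole coding region 5320 of 5802 aligned bases were identical (91.7%). Of all 50-base windows of the Myh6 transcript, 22.6% also occurred in Myh7, and of all 100-base windows 11.4% did. How the authors counted reads that match both genes is not given in the sources used here.

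Adult α-myosin dominated every heart. Myh6 (ENSMUSG00000040752, chr14:54941921-54966927), which encodes the fast motor of the adult mouse ventricle, stood at 3196, 2800.2 and 3373 FPKM in the Chow hearts. The HFpEF hearts had 2493, 2639 and 1541 FPKM. As deposited, the groups did not overlap, with every HFpEF library below every Chow library and HFpEF replicate 3 lowest, but with recovered totals as denominators they did. Chow averaged 3123 ± 293 (SD, n = 3), and HFpEF averaged 2224 ± 596 (SD, n = 3). All fold changes here are fitted on the log2(FPKM + 0.1) scale. On it the difference was -0.53 (SE 0.27, adjusted p = 0.282 from limma over all genes tested). It turned to 0.22 with quantile normalization. Scaled to the ventricular cardiomyocyte markers it was 0.087, where all genes tested had a median of 0.59. Without HFpEF replicate 3 it was -0.28 (adjusted p = 0.133, range over all alternatives 0.133 to 0.505, limma).

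Myh7 (ENSMUSG00000053093, chr14:54970684-54994626), the slow motor whose return defines the myosin switch, was low in all hearts. Chow hearts measured 23.1, 24.0 and 30.0 FPKM, and HFpEF hearts 21.9, 28.5 and 35.2. The lowest and the highest value both belonged to HFpEF hearts, and the groups overlapped. The means of 25.7 ± 3.74 (SD, n = 3) and 28.5 ± 6.68 (SD, n = 3) gave a log2 fold change of 0.13 (SE 0.20, adjusted p = 0.708 from limma). HFpEF replicate 3 decided its sign, since the value was -0.033 without that library. Exons of Myh7 overlap those of 3 antisense genes, by 484 bases for the long noncoding RNA gene Mhrt, by 523 for Gm31251 and by 142 for Gm29015, and whether the counting used strand is not stated.

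The Myh7 to Myh6 ratio is the usual index of the switch, and as a ratio within a library it does not depend on scaling between libraries. For every 1000 FPKM of Myh6 there were 7.23, 8.58 and 8.89 FPKM of Myh7 in the Chow hearts. The HFpEF hearts had 8.76, 10.8 and 22.8. HFpEF replicate 3 was far above the rest, HFpEF replicate 2 exceeded all Chow hearts, and HFpEF replicate 1 lay below Chow replicate 3. Chow averaged 8.23 ± 0.882 (SD, n = 3) and HFpEF 14.1 ± 7.61 (SD, n = 3), and the mean log2 ratios differed by 0.66 (exact permutation test, two-sided, p = 0.2, Benjamini-Hochberg adjusted p = 0.3 over the 3 ratios compared). A design of 3 against 3 cannot give a p below 0.1. Without HFpEF replicate 3 the log2 difference was 0.25, and without HFpEF replicate 1 it was 0.94. As a share of the summed FPKM of the 3 myosin genes, Myh7 made up 0.715% to 0.878% in Chow and 0.867%, 1.07% and 2.22% in HFpEF. Myh6 supplied 97.3% to 98.9% of that sum in every library, and the sum itself was 2838 to 3417 FPKM in Chow and 1584 to 2674 in HFpEF.

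**Figure D2:**
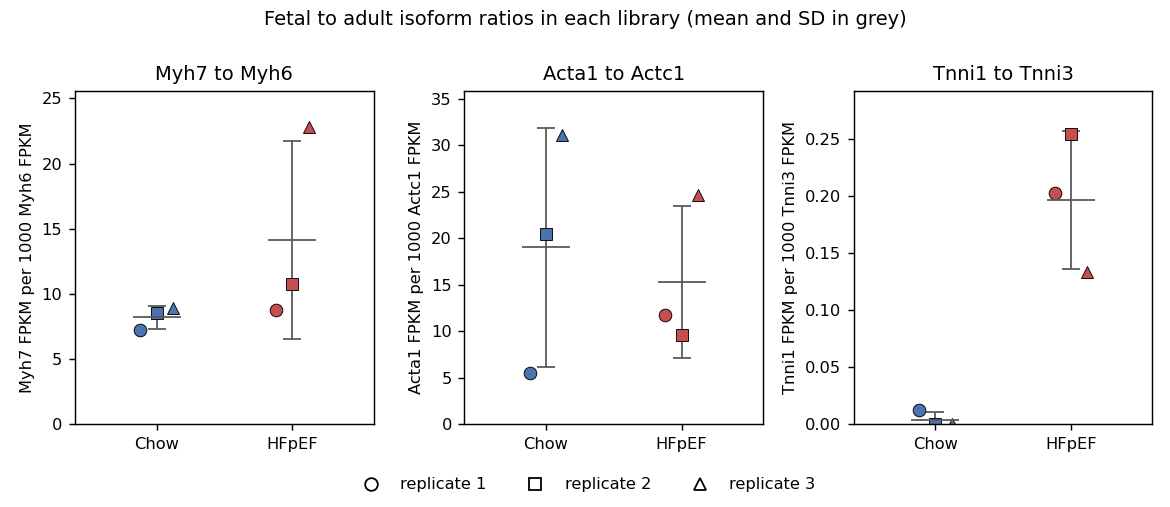
FPKM of Myh7 per 1000 FPKM of Myh6 (left), Acta1 per 1000 of Actc1 (middle) and Tnni1 per 1000 of Tnni3 (right), 1 point per library with the group mean and SD in grey. HFpEF replicate 3 is highest for Myh7 to Myh6 at 22.8, Acta1 to Actc1 spans 5.55 to 31.1 in Chow alone, and Tnni1 to Tnni3 is above Chow in all 3 HFpEF libraries.

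Myh7b gave the smallest p of the 8 tested genes. Myh7b (ENSMUSG00000074652, chr2:155611212-155634307, plus strand) encodes an ancient slow-type myosin heavy chain, and its transcript in heart is best known as the host of miR-499. Chow hearts measured 11.8, 14.0 and 14.2 FPKM, and HFpEF hearts 6.65, 6.86 and 7.93. As deposited, the groups were far apart compared with the spread inside either, and the highest HFpEF library was well below the lowest Chow library. The mean was 1.87-fold higher in Chow, at 13.3 ± 1.31 (SD, n = 3) against 7.15 ± 0.685 (SD, n = 3). With recovered totals as denominators the gap was narrow, at 10.8, 12.5 and 13.0 in Chow against 6.84, 7.25 and 10.1 in HFpEF. As a share of the summed FPKM of the 3 myosin genes the groups overlapped. Myh7b made up 0.367%, 0.492% and 0.416% in Chow and 0.264%, 0.257% and 0.501% in HFpEF. Its log2 fold change of -0.89 (SE 0.12) had an unadjusted p of 0.000201 and an adjusted p of 0.0642 (limma), so it did not pass the threshold of 0.05 over all genes. Leaving out HFpEF replicate 3 gave -0.97 with an adjusted p of 0.0134, and scaling to the ventricular cardiomyocyte markers gave -0.29 with an adjusted p of 0.387, the ends of the range over all alternatives (limma). None of its 50-base windows was shared with another gene, and 37 of its exon bases overlap the antisense gene Trpc4ap.

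Each of the 3 myosin genes carries a microRNA in an intron, and these form a family that represses regulators of the slow myosin program. Their mature sequences are shown (RefSeq, GRCm38.p6) with the seed, bases 2 to 8 and the part that pairs with targets, in capitals. They lie at chr14:54949072-54949093 in Myh6, chr14:54975710-54975731 in Myh7 and chr2:155622893-155622913 in Myh7b.
miR-208a-3p: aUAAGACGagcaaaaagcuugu
miR-208b-3p: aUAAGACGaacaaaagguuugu
miR-499-5p: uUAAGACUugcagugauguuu
The miR-208 pair shared all 7 seed positions, and miR-499-5p shared 6 of the 7 with either. An mRNA library reads the precursor locus and not the mature microRNA. Mir208b, inside Myh7, had 160, 173 and 230 reads in Chow against 153, 314 and 91 in HFpEF, with overlapping groups (log2 fold change -0.57, SE 0.49, adjusted p = 0.498 from limma). HFpEF replicate 3 was thus the lowest library for Mir208b and the highest for its host Myh7. Mir208a, inside Myh6, had 3 to 14 reads per Chow library and 3 to 11 per HFpEF library (log2 fold change -0.45, SE 0.59, adjusted p = 0.662 from limma). Mir499, inside Myh7b, had 1 read in all 6 libraries together and was not tested.

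The cardiac and the skeletal α-actin gene stand on different chromosomes but encode nearly the same filament protein. The first 60 coding bases of each are shown (GENCODE M21 transcripts, GRCm38, minus strand in both cases), with the 9 differing positions in capitals, because the Acta1 to Actc1 comparison rests on telling them apart. Acta1 begins at chr8:123893638-123893697 and Actc1 at chr2:114051972-114052031, each in exon 2.
Acta1: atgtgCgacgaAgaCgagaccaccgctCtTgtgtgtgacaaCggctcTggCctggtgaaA
Actc1: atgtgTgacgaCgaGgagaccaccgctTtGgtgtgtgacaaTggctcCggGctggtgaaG
The coding regions were identical at 976 of 1131 bases (86.3%). No 50-base window of either transcript occurred in the other, and 2.22% of the Acta1 windows occurred in other actin genes or pseudogenes.

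Actc1 (ENSMUSG00000068614, chr2:114047282-114053548), the main sarcomeric actin of the adult heart, was the most abundant of the 9 genes. Levels were 4458, 5155 and 5336 FPKM in the Chow hearts against 3435, 3820.0 and 2445 FPKM in the HFpEF hearts. All HFpEF libraries lay below all Chow libraries, with HFpEF replicate 3 lowest, as for Myh6. Chow averaged 4983 ± 464 (SD, n = 3) and HFpEF 3233 ± 709 (SD, n = 3), and the log2 fold change was -0.65 (SE 0.25, unadjusted p = 0.0392, adjusted p = 0.197 from limma), which turned to 0.30 with quantile normalization. Without HFpEF replicate 3 the difference was smaller but more even, at -0.46 with an adjusted p of 0.0480 (limma, range over all alternatives 0.0480 to 0.746).

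Acta1 (ENSMUSG00000031972, chr8:123891769-123894751), the actin of skeletal muscle and of the developing heart, varied most within a group among the 8 tested genes, with a coefficient of variation of 71.8% in Chow. Chow hearts measured 24.7, 105 and 166 FPKM, and HFpEF hearts 40.5, 36.6 and 60.4. The Chow hearts held both the lowest and the highest value, and all 3 HFpEF hearts lay inside their range. The 6.71-fold span of Chow rests on 541, 1898 and 3084 recovered reads, so counting error is small beside it. The means of 98.7 ± 70.9 (SD, n = 3) and 45.9 ± 12.8 (SD, n = 3) gave a log2 fold change of -0.76 (SE 0.67, adjusted p = 0.511 from limma), which ran from -1.57 without Chow replicate 1 to -0.20 without Chow replicate 3. The 12 skeletal muscle markers summed to 4.78, 6.58 and 7.03 FPKM in Chow and to 4.83, 5.96 and 7.23 in HFpEF, in the same order of libraries as Acta1 within Chow and with HFpEF replicate 3 highest of its group for both. Mybpc2, the fast skeletal myosin-binding protein C gene and the largest part of that sum in each library, stood at 1.44, 3.16 and 4.05 FPKM in Chow against 1.90, 2.52 and 4.23 FPKM in HFpEF. The order of the sum was that of Mybpc2, and the rest of the list did not keep it. From Chow replicate 1 to Chow replicate 3, Tnnt3 rose from 0.177 to 0.418 FPKM while Mylpf fell from 1.19 to 0.234. Myh4 and Tnnc2 were at 0 in every library, and the part of these markers in the Acta1 values was not tested.

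For every 1000 FPKM of Actc1 there were 5.55, 20.4 and 31.1 FPKM of Acta1 in the Chow hearts. The HFpEF hearts had 11.8, 9.59 and 24.7. The groups overlapped fully, and the mean log2 difference of -0.11 (exact permutation test, two-sided, p = 0.9, adjusted p = 0.9 over the 3 ratios) did not keep its sign. It was -0.84 without Chow replicate 1 and -0.52 without HFpEF replicate 3, but 0.10 and 0.40 without Chow replicates 2 and 3, and 0.016 and 0.17 without HFpEF replicates 1 and 2. Acta2, the smooth muscle α-actin gene, stood at 53.2, 73.1 and 77.9 FPKM in Chow against 422, 48.8 and 262 FPKM in HFpEF. As a share of these 3 actin transcripts Acta2 stood at 1.17% to 1.40% in Chow and at 10.8%, 1.25% and 9.47% in HFpEF, while Acta1 stayed at 0.545% to 2.98% in all 6 hearts. Acta2 is 1 of the 8 smooth muscle and pericyte markers, and the other 7 summed to 226.4, 224.8 and 249.03 FPKM in Chow against 292, 185 and 261 FPKM in HFpEF. Of these, Myh11 had the order of Acta2 in HFpEF, at 63.7, 6.99 and 30.4 FPKM, while Rgs5 was at 143 to 165 FPKM in Chow and 109 to 147 in HFpEF. Their part in the result was not tested.

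Tnni1 separated the groups, at very low levels. Tnni1 (ENSMUSG00000026418, chr1:135779434-135810989, plus strand) encodes the slow skeletal troponin I of the fetal heart, which gives way to the cardiac isoform of Tnni3 after birth. It had 1, 0 and 0 recovered reads in the Chow hearts against 11, 19 and 7 in the HFpEF hearts. Every HFpEF library had more reads than any Chow library, at an FPKM of 0.221, 0.312 and 0.101 against at most 0.0195. The ratio of pooled read rates was 28.1, with an exact 95% interval from 4.74 to 1140 that covers counting error only. Tnni1 did not reach the FPKM minimum, and with no filter its adjusted p was 0.221 (limma). Its partner Tnni3 (chr7:4518305-4524229) stood at 1588, 1639 and 1668 FPKM in Chow against 1087, 1224 and 752 FPKM in HFpEF, without overlap (log2 fold change -0.71, SE 0.23, adjusted p = 0.155 from limma), although quantile normalization turned that value to 0.054. For every 1000 FPKM of Tnni3 there were 0.0123, 0 and 0 FPKM of Tnni1 in Chow and 0.203, 0.255 and 0.134 in HFpEF, with means that differed by 0.193 (two-sided exact permutation, p = 0.1, adjusted p = 0.3 over the 3 ratios). In no heart did Tnni1 exceed 0.255 FPKM for every 1000 of the adult isoform. Atrial sums and Tnni1 were both highest in HFpEF replicates 1 and 2. Chow replicate 3 had 599 FPKM of atrial markers and 0 Tnni1 reads, and HFpEF replicate 3 had 73.6 FPKM and 7 reads. The atrial marker Dkk3 made up 40.7 of those 73.6 FPKM and was higher in every HFpEF heart than in any Chow heart. Of the 8 adipocyte markers, 7 summed to at most 0.048 FPKM in any Chow library and to 89.3, 88.2 and 36.6 in HFpEF, and 5 of these (Cfd, Adipoq, Cidec, Lep and Retn) were at 0 in all of Chow. Lpl, the lipoprotein lipase gene, which heart muscle also expresses, was the eighth and ran the other way, at 411, 414 and 437 FPKM in Chow against 333, 298 and 200.3 FPKM in HFpEF, so that the whole list summed to 411 to 437 in Chow and 423, 386 and 237 in HFpEF. The part of atrial and adipocyte markers in the Tnni1 reads was not tested.

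**Figure D3:**
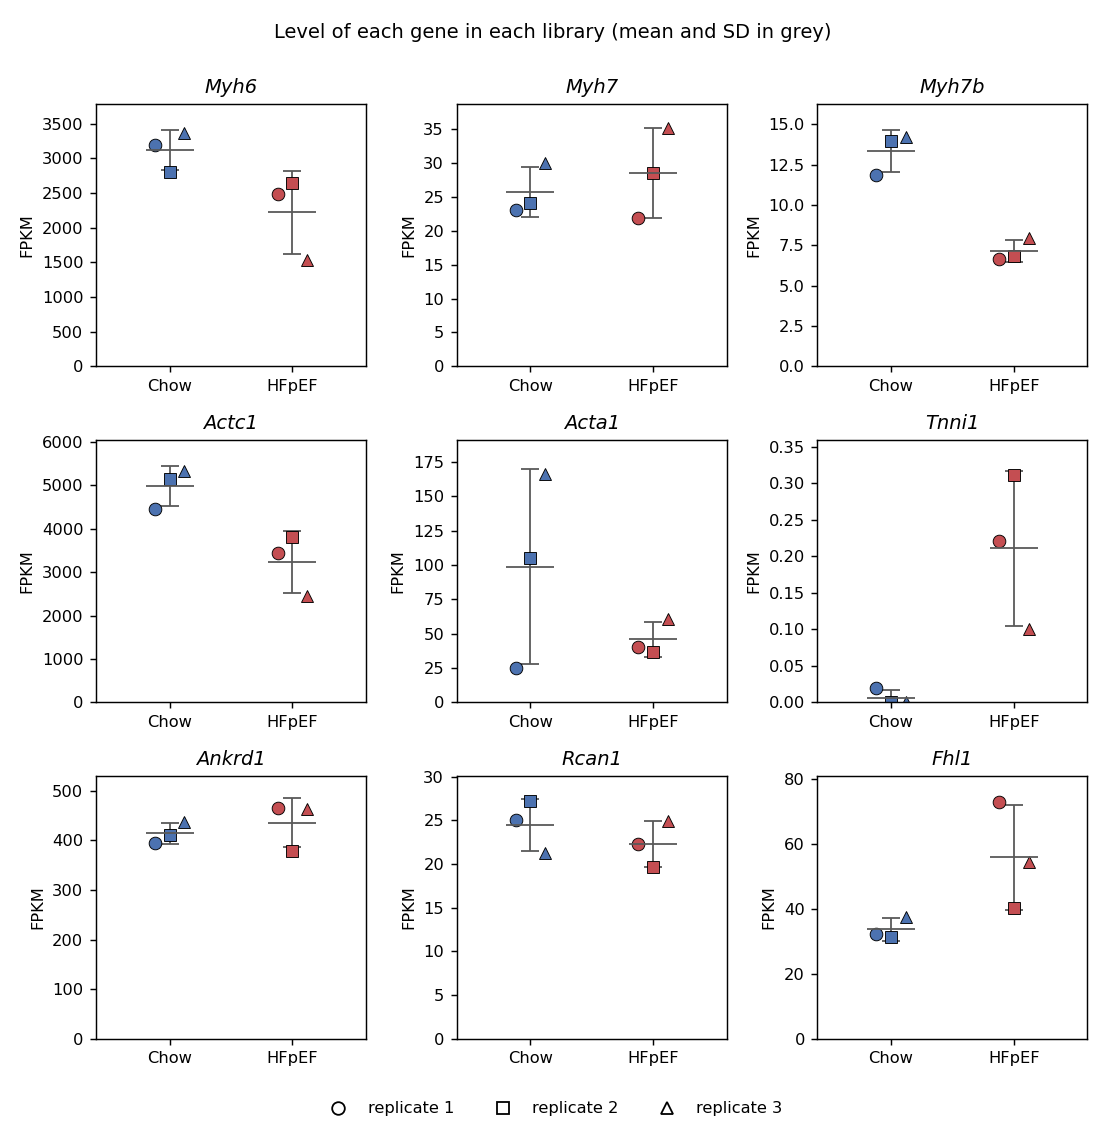
FPKM of the 9 genes in each library, with replicates 1, 2 and 3 as circles, squares and triangles and the group mean and SD in grey; every axis starts at 0. Chow and HFpEF do not overlap for Myh6, Myh7b, Actc1, Fhl1 and Tnni1, and overlap for Myh7, Acta1, Ankrd1 and Rcan1; the direction for Myh6 and Actc1 turns under quantile normalization (0.22 and 0.30 on the log2 scale), and with recovered read totals as denominators Myh6 overlaps and Ankrd1 does not.

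The load-responsive genes differed from one another. Fhl1 (ENSMUSG00000023092, chrX:56731787-56793346, plus strand) encodes a four-and-a-half-LIM-domain protein that binds titin and takes part in stretch signalling. Chow hearts measured 32.3, 31.2 and 37.6 FPKM, and HFpEF hearts 72.9, 40.4 and 54.4. All HFpEF hearts were above all Chow hearts, HFpEF replicate 1 by the most, while HFpEF replicate 2 exceeded Chow replicate 3 by less than the SD of Chow. The mean was 1.66-fold higher in HFpEF, at 55.9 ± 16.3 (SD, n = 3) against 33.7 ± 3.42 (SD, n = 3), with a log2 fold change of 0.69 (SE 0.22, unadjusted p = 0.0182, adjusted p = 0.155 from limma). That value stayed above 0 in every alternative, between 0.48 and 1.30, with adjusted p from 0.0886 to 0.378 (limma), and was 0.69 without HFpEF replicate 3. The smooth muscle and pericyte sums (280 to 327 FPKM in Chow, and 714, 234 and 524 in HFpEF) had the same order of HFpEF libraries, with replicate 1 highest and replicate 2 lowest, and their part in the Fhl1 values was not tested.

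Ankrd1 (ENSMUSG00000024803, chr19:36111961-36120099, minus strand), which encodes the ankyrin repeat protein CARP of the sarcomeric I-band and nucleus, is among the most responsive transcripts of the strained heart. Levels were 394, 410.4 and 437 FPKM in the Chow hearts against 466, 378 and 463 FPKM in the HFpEF hearts. HFpEF replicates 1 and 3 were above Chow and HFpEF replicate 2 was the lowest of the 6, although with recovered totals as denominators all 3 HFpEF hearts, at 479, 399.9 and 588, were above the Chow hearts, at 360.2, 368 and 398.9. The means of 414 ± 21.8 (SD, n = 3) and 436 ± 49.7 (SD, n = 3) differed by 0.07 on the log2 scale (SE 0.15, adjusted p = 0.814 from limma), the smallest difference of the 8 tested genes. On every alternative it stayed above 0, between 0.015 and 0.68, with adjusted p from 0.0947 to 0.964 (limma).

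Rcan1 (ENSMUSG00000022951, chr16:92391953-92470867, minus strand) encodes regulator of calcineurin, a feedback inhibitor whose short isoform is transcribed from an internal start driven by NFAT. Chow hearts measured 25.0, 27.2 and 21.3 FPKM, and HFpEF hearts 22.2, 19.7 and 24.9. The groups overlapped across most of their range, with means of 24.5 ± 2.96 (SD, n = 3) and 22.3 ± 2.62 (SD, n = 3). The log2 fold change was -0.14 (SE 0.14, adjusted p = 0.569 from limma). It became 0.12 with nuclear-encoded sums made equal, 0.16 with recovered totals as denominators and 0.48 relative to the cardiomyocyte markers. The median of all genes tested was 0.23, 0.28 and 0.59 under these settings, above Rcan1 each time. A gene-level FPKM adds the isoforms from both starts, so the calcineurin-driven short form could not be read on its own.

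The study set its thresholds on DESeq2, a test on counts, and called many more genes than the limma fit did here. Its methods ask for an adjusted p under 0.05, while its results state p under 0.05. The adjusted rule was used here, and the cause of the difference in calls was not tested. Read as a set, the members gave no call at the study's thresholds in the limma fit. Of the 8 tested, 0 combined an adjusted p under 0.05 with a log2 fold change of 2 or more in size (8 of 14225 genes tested, 0.0562%), and 0 had an adjusted p under 0.05 at any fold change (0.0984% of genes tested). The adjusted p ran from 0.0642 for Myh7b to 0.814 for Ankrd1 (limma). At an unadjusted p under 0.05 there were 3 members, Myh7b and Actc1 lower and Fhl1 higher, against 23.3% of all genes tested (13.1% lower, 10.2% higher), and limma with voom weights on recovered reads also gave 0 at the adjusted and 3 at the unadjusted level. Groups did not overlap for 4 of the 8 (Myh6, Myh7b and Actc1 lower, Fhl1 higher), against 35.3% of all genes tested (19.8% lower, 15.5% higher). With recovered totals as denominators it was also 4 of the 8 (Myh7b and Actc1 lower, Fhl1 and Ankrd1 higher), against 44% of all genes tested (6.83% lower, 37.2% higher). The median log2 fold change was -0.33 over the 8 members and -0.012 over all genes tested, and with quantile normalization it turned to 0.24 over the members. Without HFpEF replicate 3, Myh7b and Actc1 passed an adjusted p of 0.05 (limma), when 8.22% of all genes tested did and 5.36% did so in the lower direction.

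Because all 10 ventricular cardiomyocyte markers were lower in HFpEF, each member was also set against them within each library. The median log2 level of the markers, relative to the Chow mean, was -0.41, -0.39 and -1.05 in the HFpEF hearts. The corresponding values were -0.32, -0.24 and -1.02 for Myh6, and -0.54, -0.38 and -1.02 for Actc1. These adult genes therefore tracked the markers in each library, and the remainder was 0.081, 0.15 and 0.033 for Myh6 and -0.13, 0.0085 and 0.025 for Actc1, inside or close to the Chow range. Fhl1 stood above the markers by 1.52, 0.65 and 1.74 and Ankrd1 by 0.57, 0.26 and 1.21, in both cases more than in any Chow library. Myh7 stood above them by 0.18, 0.54 and 1.51, but Chow replicate 3 was at 0.19 and the groups overlapped. Myh7b stood below them in HFpEF replicates 1 and 2, at -0.59 and -0.56, and above them in HFpEF replicate 3, at 0.31. On that scale the median log2 fold change of all genes tested was 0.59, so values near it are those of an average gene: 0.74 for Myh7 and 0.68 for Ankrd1 were close to it, and 1.30 for Fhl1 was above it, with adjusted p of 0.124, 0.0947 and 0.0886 (limma, ranges over all alternatives 0.124 to 0.924, 0.0947 to 0.964 and 0.0886 to 0.378).

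**Figure D4:**
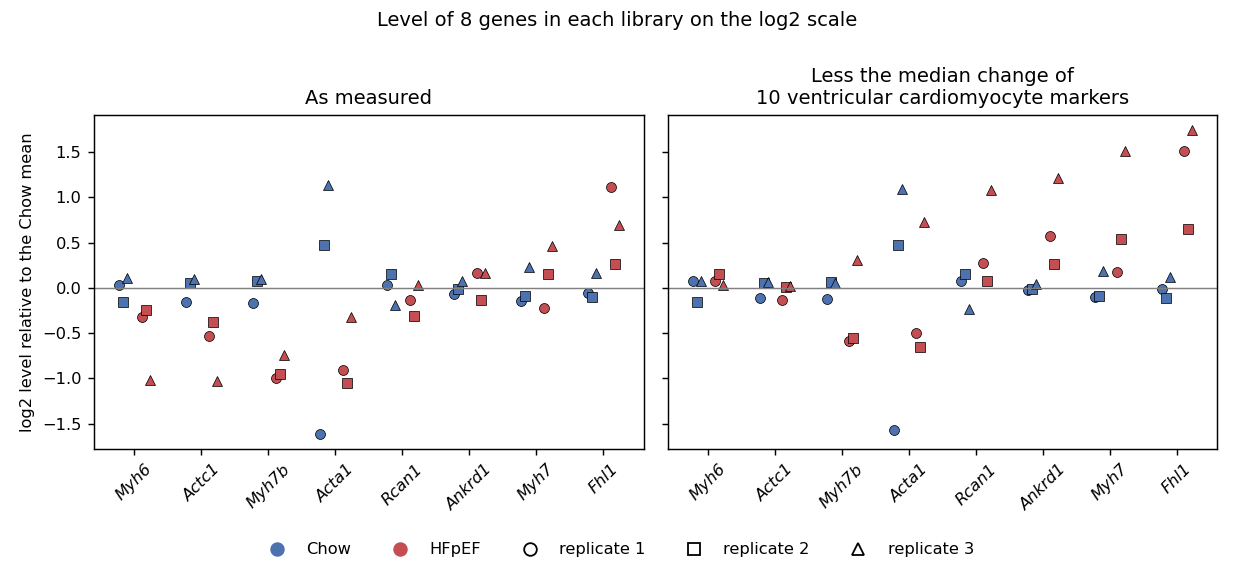
Log2 level of the 8 tested genes in each library relative to the Chow mean, as measured (left) and less the median of 10 ventricular cardiomyocyte markers (right). On the right, Myh6 and Actc1 lie near 0 in every library (HFpEF values from -0.13 to 0.15), and Fhl1 and Ankrd1 lie above Chow in all 3 HFpEF hearts. On that scale the median log2 fold change of all genes tested was 0.59, against 0.68 for Ankrd1 and 1.30 for Fhl1. How many of all genes lay above Chow in this way was not counted.

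Partner genes of the sarcomere gave a mixed picture. Of 21 tested partners, 0 had an adjusted p under 0.05, 10 were lower and 1 higher at an unadjusted p under 0.05, where 13.1% of all genes tested were lower and 10.2% higher. The median log2 fold change of -0.56 was -0.27 with recovered totals as denominators and -0.055 with quantile normalization. Relative to the cardiomyocyte markers it was 0.042, where the median of all genes tested was 0.59. Myl2, Myl3, Tnni3, Tnnt2, Mybpc3, Actn2 and Ttn are in both lists, so that last scaling draws the median toward 0 by construction. The values furthest from 0 were those of the atrial genes Myl7, which encodes the atrial regulatory light chain, and Mybphl. Myl7 stood at 3.81, 0.289 and 237 FPKM in Chow against 975, 2073 and 8.60 FPKM in HFpEF, high in Chow replicate 3 and in HFpEF replicates 1 and 2 (log2 fold change 5.19, SE 2.86, adjusted p = 0.312 from limma). It is 1 of the 8 atrial markers, and the other 7 summed to 25.8, 33.7 and 362 FPKM in Chow against 1811, 2162 and 65.0 FPKM in HFpEF, high in the same 3 libraries. Mybphl, also of that list, had a log2 fold change of 5.09 (SE 2.61, adjusted p = 0.284 from limma). Myl2, the ventricular regulatory light chain, was lower without overlap, at 2197 to 2361 FPKM in Chow and 854 to 1216 in HFpEF (log2 fold change -1.08, SE 0.21, adjusted p = 0.0987 from limma). Myl3, the ventricular essential light chain, had -0.98 (SE 0.20, adjusted p = 0.103 from limma).

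Among 16 tested stretch and stress response genes, 0 had an adjusted p under 0.05, 7 were lower and 1 higher at an unadjusted p under 0.05 (13.1% and 10.2% of all genes tested), and the median log2 fold change was -0.47, or 0.15 relative to the cardiomyocyte markers. Nppa, which encodes atrial natriuretic peptide and is a textbook hypertrophy marker, stood at 9.09, 15.7 and 197 FPKM in Chow against 896, 952 and 8.02 FPKM in HFpEF. It was high in the same 3 libraries as Myl7, and lowest of all in HFpEF replicate 3 (log2 fold change 2.64, SE 2.07, adjusted p = 0.457 from limma). Nppa is itself 1 of the 8 atrial markers, and the other 7 summed to 20.5, 18.3 and 402 FPKM in Chow against 1890.2, 3283 and 65.6 FPKM in HFpEF. Their part in the Nppa values was not tested. Ky, a Z-disc protein gene, was lower in every HFpEF heart, at 5.34, 5.41 and 6.69 FPKM in Chow and 3.73, 2.87 and 2.35 in HFpEF (log2 fold change -0.96, SE 0.19, adjusted p = 0.0997 from limma).

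Rcan1 belongs by function to the calcineurin and NFAT list. Of 20 other genes tested, 0 had an adjusted p under 0.05, and 2 were higher and 2 lower at an unadjusted p under 0.05 (10.2% and 13.1% of all genes tested). Fold changes were below 0 for 13 and above 0 for 7. Without overlap, 6 were lower and 2 higher (19.8% and 15.5% of all genes tested). The median log2 fold change of -0.076 became 0.22 with recovered totals as denominators, where the median of all genes tested was 0.28. Under both settings 12 of the 20 were below the median of all genes tested. Nfatc4, which encodes an NFAT factor of the hypertrophic heart, stood at 1.69, 1.42 and 1.51 FPKM in Chow against 2.26, 2.18 and 6.02 FPKM in HFpEF, highest in HFpEF replicate 3 (log2 fold change 0.97, SE 0.39, adjusted p = 0.204 from limma). The fibroblast markers were highest in the same library (264 to 311 summed FPKM in Chow, and 530, 581 and 5730 in HFpEF), and their part in it was not tested. Myoz2, the calcineurin-binding calsarcin of the Z-disc, had an FPKM of 176 to 178 in Chow against 118, 133 and 67.0 in HFpEF (log2 fold change -0.80, SE 0.26, adjusted p = 0.159 from limma).

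Of 15 tested regulators of myosin isoform genes, which include thyroid hormone receptors and TEAD factors, 0 had an adjusted p under 0.05, 1 was higher and 1 lower at an unadjusted p under 0.05, and the median log2 fold change of -0.17 turned to 0.13 with recovered totals as denominators. Tead4, a transcription factor that binds M-CAT elements, was lower in all 3 HFpEF libraries but did not pass the unadjusted level. Its log2 fold change was -0.50 (SE 0.24, unadjusted p = 0.0772, adjusted p = 0.259 from limma). Relative to the cardiomyocyte markers it was 0.060, where the median of all genes tested was 0.59.

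The promoter of Acta1 is shown because it carries, in 1 stretch, the elements through which serum response factor (SRF) and TEAD factors act on this gene. The 100 bases before its RefSeq start (chr8:123894776-123894875, GRCm38.p6, minus strand, 5′ to 3′) hold a CArG box, the M-CAT element CATTCC and the core promoter element TATAAA in this order, each marked by capitals in the sequence.
Acta1 promoter: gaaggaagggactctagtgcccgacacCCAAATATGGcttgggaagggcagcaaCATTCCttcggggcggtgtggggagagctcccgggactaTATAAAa
Among 32851 RefSeq promoter windows of 250 bases, searched on both strands, 1.47% held a CArG box, 12.6% CATTCC and 12.4% TATAAA. The matching window of Actc1 held 1 CArG box and that of Ankrd1 held 2 CATTCC matches. The Myh6 window and 1 Myh7 window held 1 CATTCC each, and 1 Fhl1 window held 1 CArG box and 1 TATAAA. Annotated exons overlap the windows of Actc1, Ankrd1 and Myh6 and this Fhl1 window. The SRF, myocardin and YAP-TEAD list was the only 1 of the 5 lists of related genes with a median above that of all genes tested, at 0.14 against -0.012, although with quantile normalization the calcineurin list was also above it (-0.014 against -0.050). Of its 16 tested genes 0 had an adjusted p under 0.05, and 2 were higher and 0 lower at an unadjusted p under 0.05 (10.2% and 13.1% of all genes tested). Ccn2 (connective tissue growth factor), a YAP-TEAD target, stood at 26.1, 15.9 and 23.8 FPKM in Chow against 48.1, 37.1 and 86.1 FPKM in HFpEF, without overlap (log2 fold change 1.31, SE 0.34, adjusted p = 0.119 from limma). Ccn1 had 0.61 (SE 0.46, adjusted p = 0.434 from limma). The fibroblast markers, of which all 8 were higher in every HFpEF library, were highest where Ccn2 was highest, and their part in it was not tested.

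**Figure D5:**
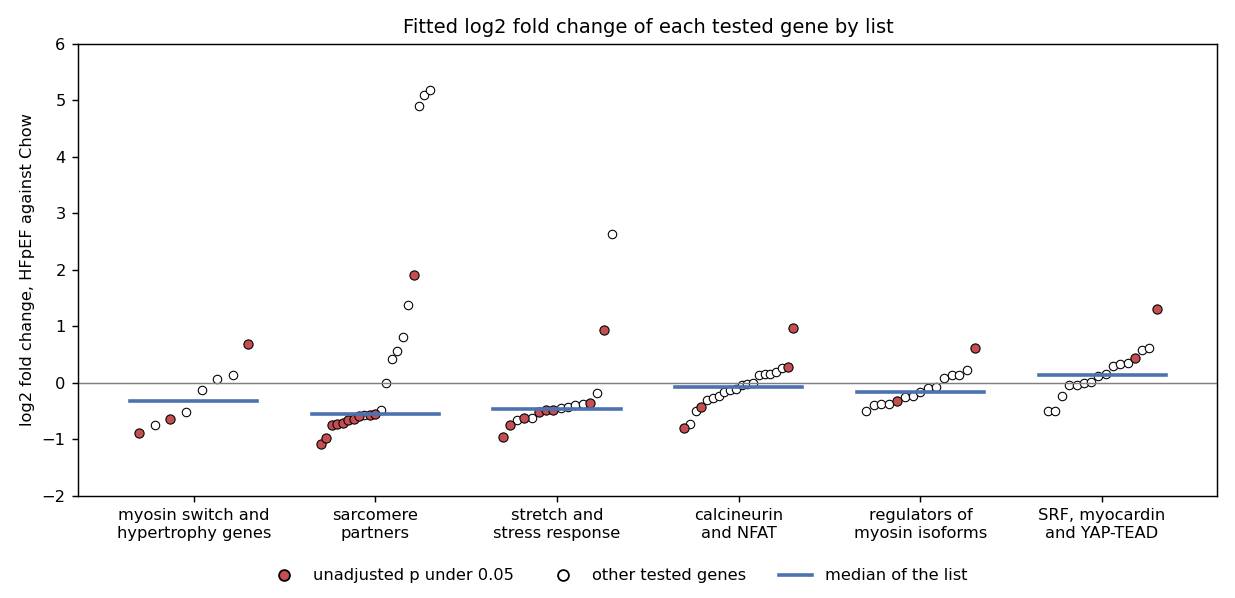
Fitted log2 fold change of each tested gene in the 9-gene set and in 5 lists of related genes, with the list median as a blue line and genes at an unadjusted p under 0.05 in red. Medians run from -0.56 for sarcomere partners to 0.14 for SRF, myocardin and YAP-TEAD genes, and the highest points in the second list are atrial sarcomere genes.

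Genes with the most similar profiles were sought over the 6 libraries among 10993 protein-coding genes with a mean FPKM of at least 1, by the root mean square difference of log2 levels relative to the Chow mean. For Myh7 they were Clasrp, Pcsk7 and Zfyve16, at 0.058, 0.066 and 0.071, where the median over all genes compared was 0.37. For Ankrd1 they were Chd4, Ufm1 and Hmgn2, at 0.040, 0.040 and 0.042 (median 0.29). Acta1 had no close match, and its nearest genes, Ucn, Scd4 and Atcay, were at 0.52, 0.55 and 0.60 (median 1.03).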

How the data were processed

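Heart RNA from 3 Chow and 3 HFpEF mice had been made into SMARTER mRNA-Seq libraries. The authors aligned reads with HISAT2, counted them with featureCounts and deposited FPKM per gene. The submitters' processing notes name GRCm38 and mm10, while the annotation release and the FPKM formula are not given in the sources used here. FPKM multiplied by GENCODE M21 exon length gave whole multiples of 1 step for 96.1% to 96.2% of values per library (relative tolerance 1e-06), and reads were recovered from that step. The denominator that the step implies differs from the recovered total. Median-of-ratios factors of the deposited FPKM were 1.00 to 1.01, so that rescaling changed little, and printed FPKM and fitted fold changes are nearly on 1 scale. The fit with recovered totals as denominators was not rescaled in that way. Intervals on reads cover counting error only.

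Genes reaching 0.5 FPKM in 3 or more libraries were fitted on log2(FPKM + 0.1), after median-of-ratios rescaling (factors 1.00 to 1.01), with limma 3.58.1 (trend and robust options) in R 4.3.3, with Benjamini-Hochberg adjustment over all 14225. Ratios within a library were compared by permuting group labels exhaustively (two-sided). Python 3.11.15, numpy 2.4.6, pandas 2.3.3, scipy 1.17.1, matplotlib 3.10.9 and Biopython 1.88 were used for the rest. Tested on simulated data with 14220 genes, the fit called 199 of 200 genes given a log2 fold change of 3 in this comparison and 1 unchanged gene. Simulated counts all had a dispersion of 0.05, a measure of spread between libraries beyond counting error, and no simulated library stood apart. The result therefore does not give the power for these data, in which HFpEF replicate 3 stood apart, or for smaller changes.

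The members, the gene lists and the rule for named genes were chosen with earlier results of these data known. Named genes are the members, Tnni3, the intronic microRNAs, the 3 nearest profiles of Myh7, Acta1 and Ankrd1, and, in each list, genes with an adjusted p under 0.05 or else the 2 with the largest absolute change at a mean FPKM of at least 1. Myh4, Tnnc2, Mybpc2, Mylpf, Tnnt3, Dkk3, Myh11, Rgs5, the adipocyte markers, Mhrt, Gm31251, Gm29015 and Trpc4ap were named after their values or positions were seen. Alternatives were other scalings, pseudocounts of 1 and 0.01, other filters, eBayes without trend and robust options, voom, the replicate number as a block, and each library left out. The linear Tnni1 to Tnni3 ratio, used because 2 Chow libraries have no Tnni1 read, the count of members by adjusted p alone, and FPKM with recovered read totals as denominators were chosen after the data were seen. The labels give no batch or date. Protein sequences and the study's other assays were not analysed here. The values of 1 gene picked by the rule for named genes are not reported here.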

Additional observations from a re-analysis of the deposited data

How the results depend on the processing

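No member was called at the study's thresholds under any of 18 alternatives to the fit. Of 144 alternative fits of the 8 tested members, 135 kept direction and side of the threshold, 2 passed an adjusted p of 0.05 and 7 changed direction. Those 7 were Myh6 with quantile normalization (0.22) and relative to cardiomyocyte markers (0.087), Actc1 with quantile normalization (0.30), Myh7 without HFpEF replicate 3 (-0.033, against up to 0.31 with another library left out), and Rcan1 with nuclear-encoded sums made equal (0.12), with recovered read totals as denominators (0.16) and relative to cardiomyocyte markers (0.48). The number of members with an adjusted p under 0.05 ran from 0 to 2 with a library left out, being 2 without HFpEF replicate 3. Over all genes, 8 calls became 24 with nuclear-encoded sums made equal, 26 with recovered read totals as denominators, 36 relative to cardiomyocyte markers, 2 and 3 with pseudocounts of 1 and 0.01, 5 at an FPKM minimum of 1, 19 without trend and robust options, and 0 with voom. They ran from 2 to 59 with a library left out. The median log2 fold change of all genes was 0.23, 0.28 and 0.59 under the first 3 of these settings. The share of calls at an unadjusted p under 0.05 that were higher was 43.7% as reported, and 85.7%, 85.8% and 99.0% under these 3 scalings. The Acta1 to Actc1 log2 difference ran from -0.84 to 0.40 with a library left out, and was 0.10 without Chow replicate 2, 0.40 without Chow replicate 3, 0.016 without HFpEF replicate 1 and 0.17 without HFpEF replicate 2. The other ratios kept their direction. The cause of these shifts was not tested.

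Same-numbered libraries did not deviate together (correlations -0.041, -0.073 and -0.057). With 3 mice a group such values cannot settle whether the numbers pair the mice, and the labels name no pairing. With the replicate block, 2 genes and 0 members were called, and the log2 differences of the ratios stayed at 0.66 for Myh7 to Myh6 and -0.11 for Acta1 to Actc1, with 0.193 per 1000 for Tnni1 to Tnni3. With 3 mice a group, differences inside the spread of Acta1 or of HFpEF replicate 3 could not be resolved, and Tnni1 rests on 38 reads.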

Other observations

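Mhrt, the long noncoding RNA transcribed antisense to Myh7, was picked once its values were known. Levels were 20.2, 18.4 and 22.6 FPKM in Chow replicates 1 to 3 against 17.9, 22.3 and 12.1 FPKM in the matching order of HFpEF hearts (log2 fold change -0.27, SE 0.23, adjusted p = 0.491 from limma). HFpEF replicate 3 was lowest for Mhrt and for Mir208b and highest for Myh7. The Mir208b locus had an FPKM of 146, 191 and 247 in Chow and of 143, 241 and 61.2 in HFpEF, against 21.9 to 35.2 for its host Myh7. Mir208a, at 2.61 to 11.8, was far below its host Myh6. These loci span 77 and 83 bases, against 8616 exon bases for Myh7 and 6726 for Myh6. Their FPKM therefore cannot be ranked against the hosts. In recovered reads Mir208b had 91 to 314 per library and Myh7 2428 to 5859.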
